A study of Mus musculus with 18 samples.

Results

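The genes described here are 37 lysosomal genes: 10 cysteine proteases, 3 aspartic and serine proteases, 11 glycosidases, 4 sulfatases, 5 lipid-acting enzymes and their activators, progranulin and 3 others. The first 34 encode lumenal proteins, while the last 3, Cln3, Mcoln1 and Ctns, encode proteins of the lysosomal membrane. All were taken by symbol from a list that was drawn up with earlier results of these data known, and all 37 were found among the 55450 genes of the count table. The samples are 3 mouse cancer cell lines, all labelled wild type (W.T): 4T1 (breast carcinoma, grown in RPMI medium), MC38 (colon adenocarcinoma, grown in DMEM) and LLC (Lewis lung carcinoma, also in DMEM). Sildenafil citrate, which blocks the cyclic GMP phosphodiesterase PDE5, was applied at 100 µM, and the solvent DMSO served as control. 4T1 and MC38 cells were exposed for 24 hours, LLC cells for 48 hours, so that for LLC the line and the time cannot be told apart, and in any comparison with 4T1 the line and the medium cannot be told apart. Each of the 6 groups holds 3 libraries. Nothing in the labels tells whether the 3 libraries were separate cultures, so p-values reflect only how far these libraries vary, and that variation may be technical.

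Lysosomes are acidic compartments in which proteins, glycans and lipids brought in by endocytosis and autophagy are broken down. Most lumenal hydrolases are made in the endoplasmic reticulum, receive a mannose 6-phosphate tag in the Golgi and are carried to the lysosome by receptors for that tag. Many lysosomal genes carry in their promoters an E-box-like element, the CLEAR element, which is bound by the MiT/TFE transcription factors TFEB, TFE3 and MITF. Loss of single genes of this set causes lysosomal storage diseases, among them Fabry disease (Gla), sialidosis (Neu1), metachromatic leukodystrophy (Arsa) and cystinosis (Ctns).

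Since this element is what the promoters of these genes are known for, the windows that hold its 7-letter core are shown first. RefSeq promoter windows for GRCm38.p6 (250 bases before to 50 bases after a gene's start) matched 34 of the 37 genes, with Ctsb, Ctsh and Galns named only. The core TCACGTG, searched on both strands, was present in 11 of the 34 (32.4%), against 1160 of all 27025 genes with a window (4.29%). Because the element is already known from promoters of such genes, the higher share is not a finding of these data. One core per gene is shown, the one nearest to the RefSeq start among those upstream of it. Each stretch is 29 bases long and is written 5′ to 3′ on the gene's strand, with the core in capitals. In Sgsh the core lies on the opposite strand and reads CACGTGA.
Arsa: tcaactcagtgTCACGTGttgtctgctcc
Cln3: cacgggtactgTCACGTGacccccaacct
Ctsa: tgagcaaactgTCACGTGatgcagatgct
Ctsd: tcgcccgcgtcTCACGTGacccgttgagg
Gaa: tttctgtgcgaTCACGTGtttgactctga
Gla: tgagatctcggTCACGTGagcaactctcg
Glb1: ctgcttctgagTCACGTGgcctacagagg
Lgmn: tggaatgtctgTCACGTGgtccattttat
Mcoln1: aggcgccccgcTCACGTGaccgcggcgca
Naglu: caaccttcaggTCACGTGgcccgaggtcg
Sgsh: ggcctgccgtgCACGTGAccgtggggagc

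Starts in this paragraph are those of the RefSeq windows and can differ from the GENCODE gene bounds used for gene positions elsewhere. The stretches of Ctsa, Cln3, Ctsd, Lgmn and Mcoln1 lie wholly within those GENCODE bounds, and those of Arsa, Naglu and Sgsh partly. The core shown begins between 13 bases before the RefSeq start, in Ctsa (chr2:164833749-164833777), and 195 bases before it, in Gla (chrX:134601183-134601211). It begins 17 bases before the start in Arsa (chr15:89477424-89477452), 29 in Sgsh (chr11:119355522-119355550), 46 in Mcoln1 (chr8:3500462-3500490), 49 in Glb1 (chr9:114401018-114401046) and 50 in Lgmn (chr12:102439125-102439153). It begins 74 bases before the start in Naglu (chr11:101070009-101070037), 99 in Ctsd (chr7:142387909-142387937), 122 in Cln3 (chr7:126583341-126583369) and 141 in Gaa (chr11:119267811-119267839). A further core, not shown, lies in the windows of 5 of these genes. It begins 228 bases before the start in Gla, 149 in Cln3, 245 in Ctsd and 72 in Mcoln1, and 4 bases after the start in Ctsa. In Cln3 the core shown is part of the full 10-letter palindrome (the core with its reverse complement), which no other of the 34 genes held and which 0.37% of all genes with a window held. The shorter E-box CACGTG, which the core contains, was present in 13 of the 34 (38.2%), against 8.09% of all genes with a window. A match describes the letters of a window and is not evidence that a factor binds there.

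4T1 libraries held 41070026 to 61600675 counts, MC38 libraries 29438227 to 36417407, and LLC libraries 26348659 to 32129786. Control replicate 3 of LLC stood apart. The mean chi-square per gene, which compares the counts of a pair of libraries with sampling noise, was 59.0 and 49.6 between it and the other LLC controls, against 12.6 between those 2 and 2.98 to 17.2 between replicates of the other groups. LLC results are therefore also given without it. The epithelial markers Epcam, Krt18 and Cdh1 were present in 4T1, with control means of 55.4, 817 and 427 CPM, and were at 0 or under 1 CPM in MC38 and LLC, while Krt8 was present in all 3 lines. The nuclear RNA Rn7sk, which lacks a poly(A) tail, averaged 25640 CPM in sildenafil and 22420 CPM in control libraries of MC38, and 27500 and 20970 CPM in those of LLC, but 6.63 and 3.32 CPM in those of 4T1. The predicted gene Gm26917 moved with treatment, at 252 ± 17.6 CPM in sildenafil and 156 ± 2.93 CPM in control libraries of 4T1, 5684 ± 576 and 11720 ± 2788 CPM in MC38, and 8913 ± 4252 and 19990 ± 9930 CPM in LLC (SD, n = 3). Its level was nearly collinear with treatment in 4T1 and MC38 (r² = 0.967 and 0.85, against 0.464 in LLC), so that treatment and this RNA cannot be told apart there. With its level as a covariate, edgeR called 9 of 34 tested genes of the set higher in 4T1, 11 of 33 in MC38 and 12 of 30 in LLC, and none lower, where 4.47%, 3.85% and 9.74% of all genes tested were called higher and 4.08%, 3.84% and 7.06% lower in these lines.

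The 37 genes together took a larger part of the library in sildenafil than in control cells in each line. They held 0.577% to 0.602% of all counts in 4T1 sildenafil libraries, against 0.403% to 0.411% in 4T1 controls. The shares were 0.479% to 0.509% in MC38 sildenafil libraries and 0.399% to 0.407% in MC38 controls, and 0.354% to 0.363% in LLC sildenafil libraries and 0.290% to 0.298% in LLC controls. The groups did not overlap in any line.

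Of the 34 genes that passed the expression filter in 4T1, 28 rose, 1 fell (Ctsl) and 5 were not called by edgeR's quasi-likelihood test at an adjusted p under 0.05. Among all 13914 genes tested in 4T1, 33.5% were called higher and 33.3% lower, so calls were common there, but they were evenly split, and the median log2 fold change was 0.53 over the 34 genes against 0.0023 over all genes. In MC38, 26 of 33 tested genes rose, none fell and 7 were not called, where 19.5% of all 13363 genes were called higher and 18.3% lower; the median was 0.34, against 0.0040 over all genes. In LLC, 12 of 30 tested genes rose, none fell and 18 were not called, where 15.1% of 13561 genes were called higher and 12.2% lower; the median was 0.16, against -0.0062. Without LLC control replicate 3 the count in LLC was 14 higher and 1 lower, with Ctsl (0.20, adjusted p = 0.000475) and Gla (0.18, adjusted p = 0.0191) added among the higher and Idua (-0.33, adjusted p = 0.00248) as the lower gene, among 31 tested; in that fit 22.4% of all 13742 genes were called higher and 21.2% lower. Values of the sildenafil and control libraries did not overlap for 28 of 34 genes in 4T1, 28 of 33 in MC38 and 17 of 30 in LLC, where they did not overlap for 71%, 48.9% and 43.9% of all genes tested. Sildenafil lay above control for 27, 27 and 17 of them, against 35.7%, 25.3% and 23.3% of all genes tested, and below it for 1, 1 and 0, against 35.3%, 23.6% and 20.6%. In either direction 66.7%, 37.8% and 27.3% of all genes tested were called by edgeR.

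**Figure D1:**
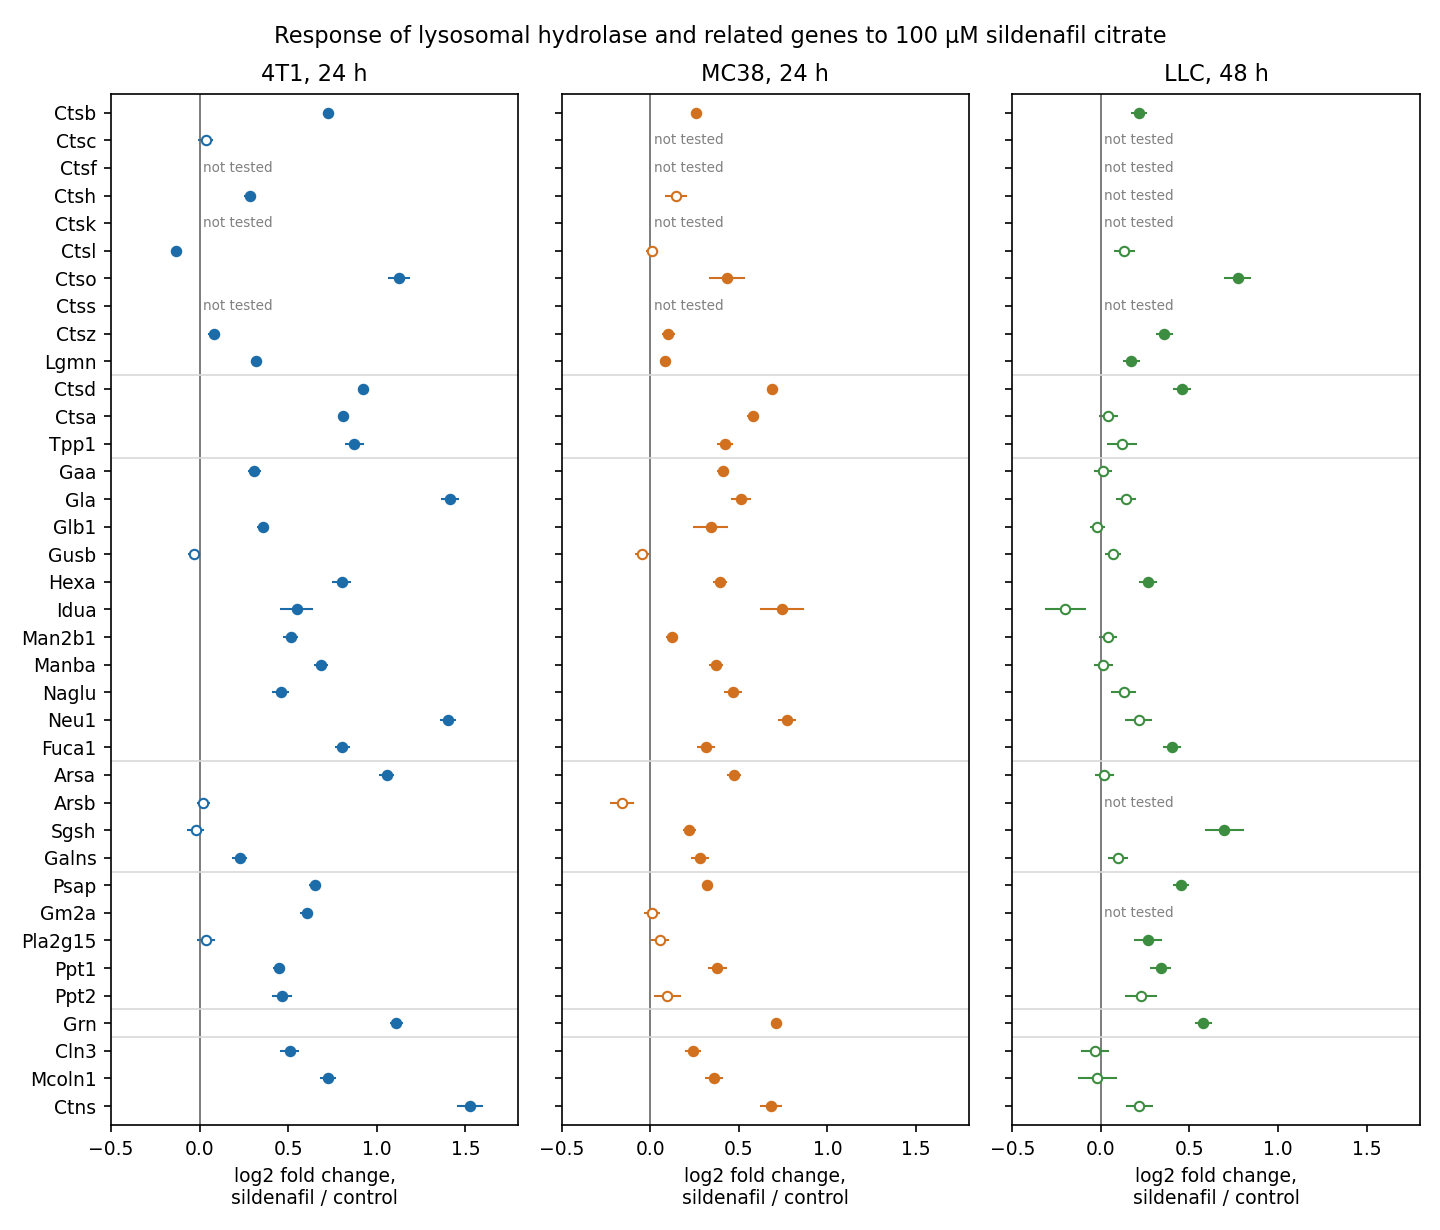
Log2 fold change (sildenafil over control, x axis) of each of the 37 genes (y axis, grouped by role) in 4T1, MC38 and LLC, with bars for the standard error and n = 3 libraries per group. Filled points passed the test at an adjusted p under 0.05 and open points did not; the called points run up to 1.53 in 4T1 and to 0.77 in MC38 and LLC, and 1 called point, Ctsl in 4T1, lies below 0.

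The counts of each class given from here on stand beside 33.5%, 19.5% and 15.1% of all genes called higher in 4T1, MC38 and LLC. The shares called lower were 33.3%, 18.3% and 12.2%. Of the 10 cysteine proteases, which cut proteins in the lysosome, 5 of the 7 tested rose and 1 fell in 4T1, 4 of 6 rose in MC38 and 4 of 5 in LLC. Ctso, a little studied papain-like cathepsin (chr3:81932601-81956725), had the largest rise among them in 4T1, MC38 and LLC. It stood at 16.0, 15.1 and 15.1 CPM in 4T1 sildenafil libraries, against 7.23, 7.22 and 6.65 CPM in 4T1 controls. All 3 treated libraries lay far above the highest control, and the rise was 1.13 ± 0.0616 on the log2 scale (SE; edgeR adjusted p = 2.86e-09). In MC38 it stood at 10.0, 10.1 and 9.08 CPM with sildenafil, against 7.67, 7.90 and 5.99 CPM in controls, a rise of 0.43 ± 0.103 without overlap (edgeR adjusted p = 0.00365). In LLC it stood at 17.5, 17.1 and 16.1 CPM with sildenafil, against 10.6, 9.36 and 9.76 CPM in controls, a rise of 0.77 ± 0.0766 (edgeR adjusted p = 0.000140), the largest of the set in that line.

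Ctsb, the main lysosomal cathepsin with both endo- and exopeptidase activity, rose in all 3 lines, by 0.73 ± 0.0303 in 4T1, 0.26 ± 0.0267 in MC38 and 0.22 ± 0.0435 in LLC. It averaged 770.3 ± 12.0 CPM in sildenafil and 466 ± 12.7 CPM in control libraries of 4T1 (SD, n = 3). Its exons share 774 bases (12.8%) with Fdft1, a sterol synthesis gene on the opposite strand that rose by 2.31 in 4T1, 1.99 in MC38 and 0.49 in LLC. Whether the deposited counts used strand is not given in the sources used here, and the part of Fdft1 reads in the Ctsb values was not tested. Lgmn, the asparaginyl endopeptidase that matures other cathepsins, rose by 0.32 ± 0.0301 in 4T1. Its calls in MC38 (0.08, adjusted p = 0.0495) and LLC (0.17, adjusted p = 0.0254) were each lost when 1 library was left out, any but sildenafil replicate 3 in MC38 (adjusted p up to 0.147) and any but control replicates 2 and 3 in LLC (adjusted p up to 0.0974).

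Ctsz, a carboxypeptidase, rose by 0.36 ± 0.0463 in LLC, with 211, 208 and 207 CPM in sildenafil libraries, against 163, 155 and 169.6 CPM in controls. Its called rises of 0.08 in 4T1 (0.15 with library totals as the only scaling) and 0.10 in MC38 were small, and each was lost without any 1 of 4 libraries: in 4T1 sildenafil or control replicate 1 or 2 (adjusted p 0.103 to 0.201), and in MC38 sildenafil replicate 1 or 2 or control replicate 1 or 3 (adjusted p 0.0747 to 0.143). Ctsh, an aminopeptidase, rose by 0.29 ± 0.0344 in 4T1 and stood at 0.14 ± 0.0633 in MC38 (edgeR adjusted p = 0.0856; 0.0257 without control replicate 1). Ctsc, which activates granule serine proteases in leukocytes, stood at 0.03 ± 0.0416 in 4T1, the only line with counts (edgeR adjusted p = 0.483); with library totals as the only scaling it was called higher (0.10, adjusted p = 0.0412).

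Ctsl, a broad endopeptidase and the gene of the set with the highest control CPM in 4T1 and MC38, was the only one that fell. It stood at 1142, 1130.2 and 1129.9 CPM in 4T1 sildenafil libraries, against 1216, 1246 and 1264 CPM in 4T1 controls. The groups did not overlap, and Ctsl fell by 0.13 ± 0.0285 (edgeR adjusted p = 0.00107). With library totals as the only scaling the decrease was 0.06 (adjusted p = 0.0367). In MC38 it had 1461, 1382 and 1356 CPM with sildenafil and 1417, 1396 and 1357 CPM in controls, which overlapped (0.01 ± 0.0323, edgeR adjusted p = 0.846). In LLC it had 435, 441 and 436 CPM with sildenafil, against 387, 375 and 435 CPM in controls (0.13 ± 0.0591, edgeR adjusted p = 0.121). The high LLC control value is that of replicate 3, without which Ctsl rose by 0.20 (adjusted p = 0.000475), and Ctsl was also called higher in LLC when all 18 libraries were fitted together (0.15, adjusted p = 0.0142). Ctsk, the collagen-degrading cathepsin of osteoclasts, and Ctss, the cathepsin of antigen-presenting cells, had 9 to 54 counts per line over 6 libraries and were not tested, and Ctsf had 0 counts in all 18 libraries, which allows up to 0.00446 CPM over the 18 (3 counts).

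The 3 aspartic and serine proteases all rose in 4T1 and MC38, and Ctsd also rose in LLC. Ctsd, the main aspartic protease of the lysosome (chr7:142375911-142388038), stood at 439.9, 447 and 456 CPM in 4T1 sildenafil libraries, against 236, 234 and 239 CPM in 4T1 controls. In MC38 it stood at 582, 564 and 547 CPM with sildenafil, against 354, 350.1 and 345 CPM in controls, and in LLC at 398, 414 and 421 CPM with sildenafil, against 295, 288 and 314 CPM in controls. The groups were apart in each line, with rises of 0.92 ± 0.0279, 0.69 ± 0.0296 and 0.46 ± 0.0503 (edgeR adjusted p at most 0.000251). Of its exon bases, 34.4% are shared with the predicted gene Gm49369 on the same strand, which averaged 17.8 counts.

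Ctsa, the protective protein that stabilises Neu1 and Glb1 and is itself a carboxypeptidase, differed between the lines. It stood at 154, 154 and 159 CPM in 4T1 sildenafil libraries, against 88.6, 89.3 and 88.2 CPM in controls, and at 104, 102 and 98.7 CPM in MC38 sildenafil libraries, against 66.6, 69.7 and 66.9 CPM in controls. It rose by 0.81 ± 0.0298 in 4T1 and 0.58 ± 0.0342 in MC38. In LLC it had 126, 136 and 141 CPM with sildenafil and 127, 129 and 136 CPM in controls, which overlapped (0.04 ± 0.0530, edgeR adjusted p = 0.581). Ctsa shares 10.5% of its exon bases with Pltp on the opposite strand, which rose by 0.90 in 4T1, 0.64 in MC38 and 0.23 in LLC; the part of those reads was not tested. Tpp1, a tripeptidyl peptidase lost in a neuronal ceroid lipofuscinosis, rose by 0.87 ± 0.0522 in 4T1 and 0.42 ± 0.0456 in MC38 and stood at 0.12 ± 0.0844 in LLC (edgeR adjusted p = 0.307).

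Glycosidases remove sugars from glycoproteins, glycolipids and glycosaminoglycans. Of the 11, 10 rose in 4T1 and 10 in MC38, and 2 in LLC (Hexa and Fuca1), with none lower in any line; the medians were 0.55, 0.39 and 0.07. Gla, the alpha-galactosidase that breaks down globotriaosylceramide, had 28.0, 28.8 and 28.5 CPM in 4T1 sildenafil libraries, against 10.1, 11.2 and 10.7 CPM in controls, and rose by 1.41 ± 0.0518 (edgeR adjusted p = 7.10e-11). In MC38 it had 22.3, 22.3 and 20.9 CPM with sildenafil, against 14.5, 15.5 and 15.8 CPM in controls, and rose by 0.51 ± 0.0564. LLC libraries had 36.6, 39.2 and 40.1 CPM of Gla with sildenafil, against 33.7, 34.8 and 36.4 CPM in controls. The LLC groups were narrowly apart, and Gla was not called with the 6 LLC libraries (0.14 ± 0.0567, edgeR adjusted p = 0.0851). It was called when all 18 libraries, which share 1 estimate of the spread, were fitted together (0.16, adjusted p = 0.0198).

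Neu1, the lysosomal sialidase (chr17:34931253-34935953), followed the same order of lines. It had 39.9, 38.2 and 40.8 CPM in 4T1 sildenafil libraries, against 15.3, 14.4 and 15.2 CPM in controls. In MC38 it had 36.4, 35.3 and 34.1 CPM with sildenafil, against 21.6, 20.5 and 19.7 CPM in controls, and in LLC 13.6, 12.5 and 12.3 CPM with sildenafil, against 11.4, 10.8 and 11.03 CPM in controls. The groups were apart in all 3 lines, with rises of 1.40 ± 0.0472 in 4T1 and 0.77 ± 0.0501 in MC38, and 0.21 ± 0.0752 in LLC, where it was not called (edgeR adjusted p = 0.0601). Fitted with all 18 libraries, Neu1 was called in LLC (adjusted p = 0.00501).

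Hexa, the alpha subunit of beta-hexosaminidase, rose by 0.80 ± 0.0509 in 4T1, 0.39 ± 0.0394 in MC38 and 0.27 ± 0.0501 in LLC. Fuca1, the alpha-fucosidase, had 48.5, 50.8 and 49.7 CPM in LLC sildenafil libraries, against 37.0, 36.6 and 39.2 CPM in LLC controls, and rose by 0.40 ± 0.0505 there, by 0.81 ± 0.0412 in 4T1 and by 0.31 ± 0.0498 in MC38. Idua, the iduronidase of dermatan and heparan sulfate breakdown, was measured in LLC at 14.6, 13.6 and 13.2 CPM in sildenafil libraries and 17.5, 17.2 and 12.9 CPM in controls. The groups overlapped only through control replicate 3, and Idua was not called there (-0.20 ± 0.116, edgeR adjusted p = 0.219), but fell by 0.33 without that library (adjusted p = 0.00248). In 4T1 it had 7.62, 7.81 and 8.58 CPM with sildenafil, against 6.16, 5.06 and 5.15 CPM in controls, and in MC38 5.21, 5.82 and 6.03 CPM with sildenafil, against 2.90, 3.71 and 3.56 CPM in controls. It rose by 0.55 ± 0.0912 in 4T1 and by 0.74 ± 0.123 in MC38. Idua shares 124 exon bases (2.9%) with Dgkq on the opposite strand, which averaged 635.3 counts. Dgkq stood at 0.36 in 4T1, 0.18 in MC38 and 0.13 in LLC, and the part of its reads was not tested.

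Among the other glycosidases, Manba, the beta-mannosidase, rose by 0.69 ± 0.0406 in 4T1 and 0.37 ± 0.0383 in MC38, and Naglu, an enzyme of heparan sulfate breakdown, by 0.46 ± 0.0464 and 0.47 ± 0.0513. Gaa, the acid alpha-glucosidase of glycogen breakdown, rose by 0.31 ± 0.0365 in 4T1 and 0.41 ± 0.0344 in MC38. Man2b1, the alpha-mannosidase, rose by 0.52 ± 0.0416 in 4T1 and by 0.12 ± 0.0353 in MC38, where the call was lost without sildenafil replicate 1 (0.10, adjusted p = 0.0628). Glb1, the beta-galactosidase, rose by 0.36 ± 0.0351 in 4T1 and by 0.34 ± 0.100 in MC38, where its level was low and the call was lost without sildenafil replicate 2 (0.24, adjusted p = 0.0994) or control replicate 2 (0.31, adjusted p = 0.0572). In LLC these 5 genes stood between -0.02 and 0.13, and none was called. Gusb, the beta-glucuronidase, was not called in any line (-0.03 ± 0.0339 in 4T1, -0.05 ± 0.0371 in MC38 and 0.07 ± 0.0470 in LLC). Its levels overlapped between the groups in 4T1 and MC38, where sildenafil libraries had 97.9 to 100.0 and 87.4 to 93.0 CPM and controls 97.1 to 103 and 89.6 to 96.4 CPM.

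**Figure D2:**
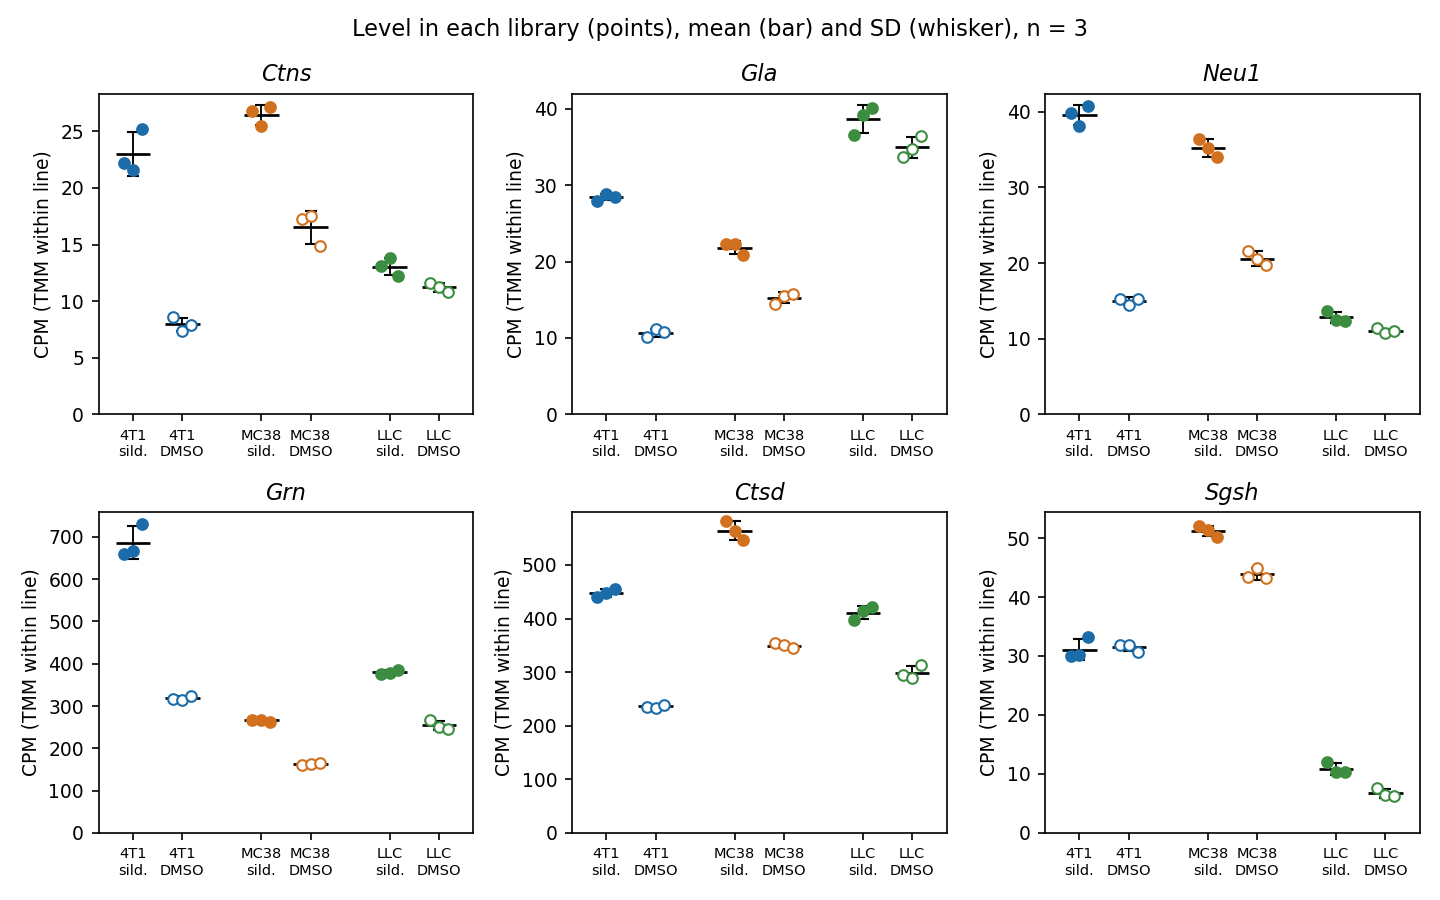
Level of 6 genes in each library (y axis, CPM with TMM scaling within the line, starting at 0), with the mean as a bar and the SD as a whisker, n = 3; in each pair the sildenafil libraries (filled) stand left of the DMSO libraries (open). Ctns, Gla and Neu1 are wide apart in 4T1 and close together in LLC, Grn and Ctsd are apart in all 3 lines, and Sgsh overlaps in 4T1 and is apart in LLC at 12.1 CPM or less; levels are scaled per line and are not to be compared between lines here.

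Of the 4 sulfatases, which remove sulfate groups from glycans and sulfatide, 2 rose in 4T1, 3 in MC38 and 1 of the 3 tested in LLC, and these were not the same genes in each line. So few genes cannot be set against the 33.5%, 19.5% and 15.1% of all genes called higher in these lines. Arsa, the arylsulfatase that degrades sulfatide, had 101, 99.6 and 109.6 CPM in 4T1 sildenafil libraries, against 50.6, 48.9 and 49.4 CPM in controls, and rose by 1.06 ± 0.0415 (edgeR adjusted p = 1.35e-10). It rose by 0.47 ± 0.0400 in MC38. In LLC it had 85.0, 84.9 and 85.5 CPM with sildenafil, inside the control range of 81.1, 80.6 and 90.3 CPM (0.02 ± 0.0531, edgeR adjusted p = 0.819). Sgsh, the heparan N-sulfatase, showed the reverse order of lines. It had 30.0045, 30.1 and 33.1 CPM in 4T1 sildenafil libraries and 31.8, 31.9 and 30.7 CPM in controls, which overlapped (-0.02 ± 0.0476, edgeR adjusted p = 0.696). In MC38 it had 52.0, 51.4 and 50.2 CPM with sildenafil, against 43.4, 44.9958 and 43.3 CPM in controls, and rose by 0.22 ± 0.0391. In LLC it had 12.1, 10.2 and 10.4 CPM with sildenafil, against 7.59, 6.36 and 6.18 CPM in controls, and rose by 0.70 ± 0.110 (edgeR adjusted p = 0.00176). Sgsh shares 21.6% of its exon bases with Card14 on the opposite strand, which averaged 18.3 counts. Galns, which acts on keratan sulfate, rose by 0.23 ± 0.0422 in 4T1 and 0.28 ± 0.0521 in MC38, and stood at 0.10 ± 0.0565 in LLC. Arsb, which acts on dermatan sulfate, stood at 0.02 ± 0.0364 in 4T1 and -0.16 ± 0.0688 in MC38 (edgeR adjusted p = 0.0912), where it was called lower when no filter on low counts was used (adjusted p = 0.0160).

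Of the 5 lipid-acting enzymes and activators, 4 rose in 4T1, 2 in MC38 and 3 of the 4 tested in LLC. Psap, the precursor of the saposins that present sphingolipids to their hydrolases (chr10:60277627-60302597), rose in each line. It had 803, 789 and 830.1 CPM in 4T1 sildenafil libraries, against 512, 514 and 518 CPM in controls, and rose by 0.65 ± 0.0292. It rose by 0.32 ± 0.0282 in MC38. In LLC it had 583, 578 and 591 CPM with sildenafil, against 426, 416 and 439 CPM in controls, and rose by 0.45 ± 0.0458 (edgeR adjusted p = 0.000163). Ppt1, a thioesterase that removes fatty acids from proteins, rose by a like amount in each line (0.45 ± 0.0324, 0.38 ± 0.0540 and 0.34 ± 0.0591), and its relative Ppt2 rose in 4T1 alone among the calls (0.47 ± 0.0574), at 0.10 ± 0.0741 in MC38 and 0.23 ± 0.0915 in LLC. Ppt1 shares 129 exon bases (3.5%) with Cap1 on the opposite strand, which averaged 9730.3 counts. Cap1 stood at 0.35 in 4T1, -0.02 in MC38 and 0.11 in LLC, and the part of its reads was not tested. Ppt2 was called in LLC without control replicate 1 (0.34, adjusted p = 0.0231) and with all 18 libraries in 1 fit (0.25, adjusted p = 0.0158). Gm2a, the activator that lifts GM2 ganglioside for beta-hexosaminidase, rose by 0.60 ± 0.0353 in 4T1 and stood at 0.01 ± 0.0430 in MC38. Pla2g15, a lysosomal phospholipase, stood at 0.04 ± 0.0503 in 4T1 and 0.05 ± 0.0490 in MC38, and its called rise of 0.27 ± 0.0797 in LLC was lost without any 1 LLC library but control replicate 3 (adjusted p 0.0760 to 0.121).

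Grn, which encodes progranulin, a secreted and lysosomal precursor of granulins (chr11:102430315-102437048), was among the 6 largest called changes of the set in every line. It had 660.4, 667 and 731 CPM in 4T1 sildenafil libraries, against 317, 313 and 323 CPM in controls, 2.16-fold higher. It had 267, 267 and 263 CPM in MC38 sildenafil libraries, against 161, 162 and 164 CPM in controls, and 376, 379 and 386 CPM in LLC sildenafil libraries, against 267, 251 and 246 CPM in controls. The groups were apart in all 3 lines, with rises of 1.11 ± 0.0381, 0.71 ± 0.0275 and 0.58 ± 0.0474 (edgeR adjusted p at most 4.34e-05).

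Each of the 3 membrane proteins of the set rose in 4T1 and in MC38, and none was called in LLC. Ctns, the cystine exporter (chr11:73183596-73199042), had the largest rise of all 37 genes. It had 22.2, 21.6 and 25.2 CPM in 4T1 sildenafil libraries, against 8.56, 7.38 and 7.93 CPM in controls, 2.88-fold higher (1.53 ± 0.0739, edgeR adjusted p = 9.14e-10). In MC38 it had 26.8, 25.5 and 27.1 CPM with sildenafil, against 17.2, 17.5 and 14.9 CPM in controls, and rose by 0.68 ± 0.0617. LLC libraries had 13.1, 13.8 and 12.3 CPM with sildenafil, against 11.6, 11.2 and 10.8 CPM in controls. These were apart but close, and Ctns was not called (0.22 ± 0.0771, edgeR adjusted p = 0.0615; 0.0259 with all 18 libraries in 1 fit). Mcoln1, the calcium channel TRPML1, rose by 0.72 ± 0.0448 in 4T1 and 0.36 ± 0.0493 in MC38, and stood at -0.02 ± 0.110 in LLC. Cln3, lost in juvenile neuronal ceroid lipofuscinosis, rose by 0.51 ± 0.0549 and 0.24 ± 0.0467, and stood at -0.03 ± 0.0793 in LLC. Its exons share 442 bases (7.6%) with Apobr on the opposite strand, which averaged 1629.9 counts. Apobr rose by 0.63 in 4T1, 0.19 in MC38 and 0.53 in LLC, and the part of its reads in the Cln3 values was not tested.

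Across the lines, 10 genes rose in all 3: Ctsb, Ctso, Ctsz, Lgmn, Ctsd, Hexa, Fuca1, Psap, Ppt1 and Grn. A further 15 rose in 4T1 and MC38 and were not called in LLC, among them 8 of the 11 glycosidases and all 3 membrane proteins. The 25 genes higher in both 4T1 and MC38 are 89.3% of those higher in 4T1 and 96.2% of those higher in MC38. The 10 shared by 4T1 and LLC are 35.7% and 83.3% of the genes higher in these lines, and the 11 shared by MC38 and LLC are 42.3% and 91.7%. Of all genes tested, 33.5%, 19.5% and 15.1% were called higher in 4T1, MC38 and LLC. The share called higher in 2 or 3 lines at once was not computed, so these overlaps have no background of their own. Calls of Ctsz in 4T1 and MC38 and of Lgmn in MC38 and LLC were lost without single libraries. With DESeq2, Ctsz was lost in 4T1 and MC38 and Lgmn in MC38. Not called higher in any line were 7 genes, of which Ctsf, Ctsk and Ctss had few or no counts and Ctsc, Ctsl, Gusb and Arsb were expressed in at least 1 line.

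A call in one line and not in another does not show a difference, so the difference of the responses was tested on all 18 libraries. MC38 responded less than 4T1 for 20 of 34 tested genes and more for 1 (Sgsh), where 16.7% of all 16040 genes were called lower and 17.9% higher (34.6% in either direction). The largest differences were -0.91 ± 0.0798 in Gla, -0.86 ± 0.101 in Ctns, -0.71 ± 0.119 in Ctso and -0.64 ± 0.0713 in Neu1 (edgeR adjusted p at most 5.16e-05). The difference in Sgsh (0.23) was lost without any 1 of sildenafil or control replicates 1 and 2 of 4T1, sildenafil replicates 1 and 2 of MC38, or control replicates 1 and 3 of MC38 (adjusted p 0.0515 to 0.0858). Arsb (-0.20) was called only without MC38 control replicate 2 (adjusted p = 0.0487). Both lines were treated for 24 hours but grown in different media, RPMI for 4T1 and DMEM for MC38, so line and medium cannot be told apart. 4T1 libraries also stood apart from those of MC38 and LLC in Rn7sk and Gm26917. What part this make-up of the libraries has in any difference from 4T1 was not tested.

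The log2 fold change was lower in LLC than in 4T1 for 22 of 34 genes and higher for 4. Of all genes, 20.2% were called lower and 21.8% higher (42% in either direction). Ctns differed by -1.31 ± 0.107, Gla by -1.27 ± 0.0760, Neu1 by -1.19 ± 0.0783 and Arsa by -1.04 ± 0.0683 (edgeR adjusted p at most 1.48e-09). The 4 with a higher log2 fold change in LLC were Sgsh (0.72 ± 0.0965), Ctsz (0.28 ± 0.0565), Ctsl (0.26 ± 0.0644) and Pla2g15 (0.23 ± 0.0800). In Ctsl this was a difference of sign, at -0.13 in 4T1, where it was called lower, and 0.13 in LLC, where it was not called. Pla2g15 was lost without 4T1 sildenafil replicate 1 or control replicate 1 or LLC control replicate 1 (adjusted p 0.0530 to 0.0655). Among the 22, Ctso was lost without LLC control replicate 1 (adjusted p = 0.0628), and Lgmn without sildenafil replicate 1 or 2 or control replicate 2 of 4T1, or sildenafil or control replicate 2 or 3 of LLC (adjusted p 0.0515 to 0.0925). Ppt2 (-0.24, adjusted p = 0.0706) was called without LLC sildenafil replicate 3 or control replicate 2 or 3 (adjusted p 0.0312 to 0.0406).

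LLC responded less than MC38 for 14 genes and more for 5, where 9.68% of all genes were called lower and 12.6% higher (22.3% in either direction), led by Idua (-0.93 ± 0.167), Neu1 (-0.55 ± 0.0793), Ctsa (-0.52 ± 0.0588) and Sgsh (0.49 ± 0.0966). Of these 19 calls, 13 were kept in every alternative fit, and 6 were lost without single libraries (adjusted p 0.0503 to 0.171). Ctso was lost without MC38 sildenafil replicate 3, MC38 control replicate 1 or 2, LLC sildenafil replicate 1 or 2, or LLC control replicate 2. Tpp1 was lost without any 1 library but MC38 sildenafil replicate 2, LLC sildenafil replicate 3 and LLC control replicate 3, and Pla2g15 without any but MC38 sildenafil replicate 1 and LLC control replicate 3. Psap was lost without MC38 sildenafil replicate 2 or 3, MC38 control replicate 1 or 2, LLC sildenafil replicate 3 or LLC control replicate 2. Cln3 was lost without any 1 library but control replicate 1 of each line and LLC sildenafil replicate 1, and Mcoln1 without MC38 control replicate 2, LLC sildenafil replicate 2 or LLC control replicate 1 or 2. Ctsl (0.14, adjusted p = 0.137) was called without LLC control replicate 3 (0.21, adjusted p = 0.00156). Tests of a difference include Ctsc, Ctsh, Arsb and Gm2a, which were at or near 0 counts in 1 or more lines and were not called where that line was part of the pair.

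**Figure D3:**
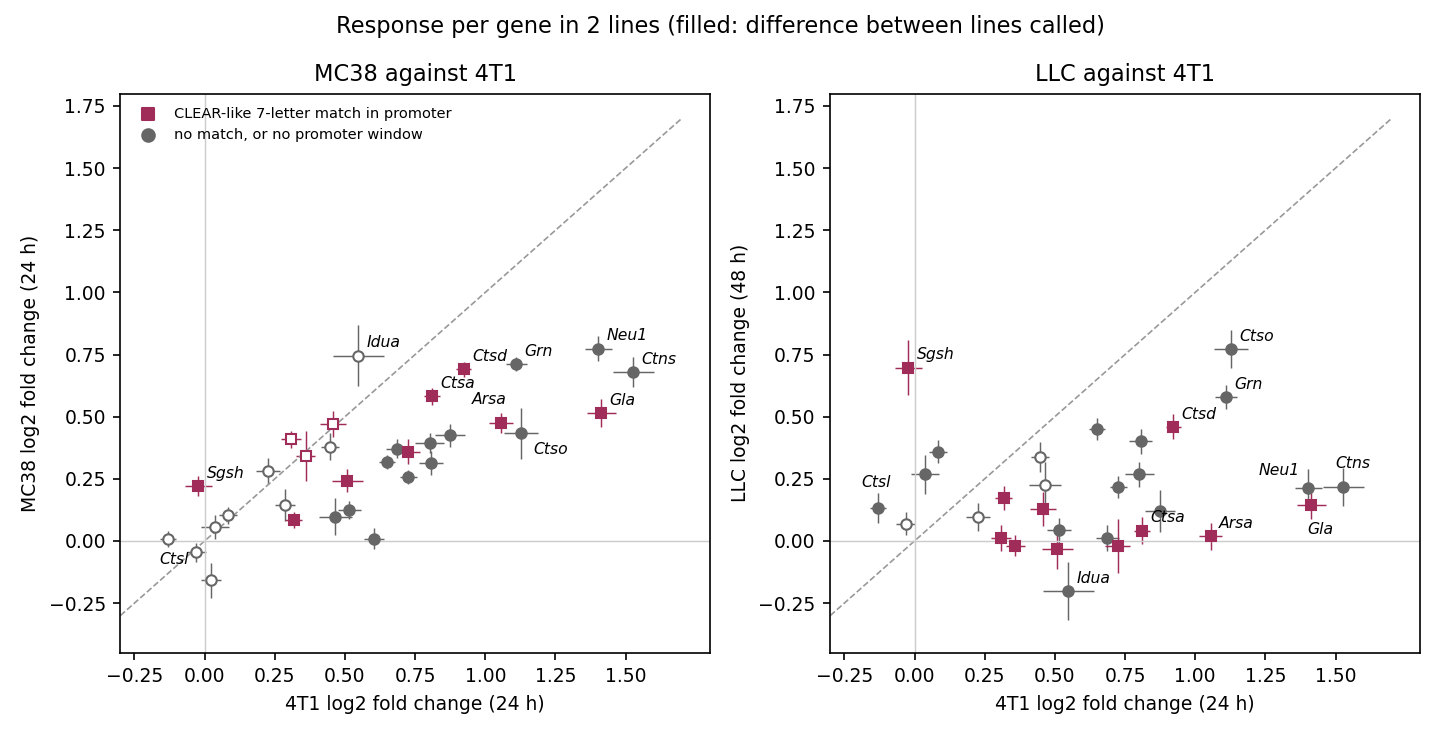
Log2 fold change of each gene in MC38 (left) and LLC (right) on the y axis against its log2 fold change in 4T1 on the x axis, with standard errors and a dashed line of equal response; squares mark genes whose promoter window holds the 7-letter core, and filled symbols mark genes whose difference between the lines passed the test. Gla, Ctns and Neu1 lie far below the line in both panels, and Sgsh lies above it at 0.22 in MC38 and 0.70 in LLC.

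Genes with and without the 7-letter core in their promoter window were compared by counts. In 4T1, 10 of 11 genes with the core and 15 of 20 genes with a window but no core rose, with median log2 fold changes of 0.51 and 0.58. In MC38, 11 of 11 with the core and 13 of 19 without it rose, with medians of 0.41 and 0.32. In LLC, 3 of 11 with the core (Ctsd, Lgmn and Sgsh) and 8 of 17 without it rose, with medians of 0.04 and 0.23. The core was present in 8 of the 14 genes with a window that rose in 4T1 and MC38 and were not called in LLC, and in 2 of the 9 that rose in all 3 lines. These are counts over few genes, given with no test. Of all genes tested, 33.5%, 19.5% and 15.1% were called higher in 4T1, MC38 and LLC. The share among all genes whose window holds the core was not computed, so the counts are no result about the core.

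In untreated cells the 3 lines differed widely in these genes. Between control groups 31 of 34 genes differed between 4T1 and MC38 (14 higher and 17 lower in 4T1), 33 between 4T1 and LLC (18 higher and 15 lower in 4T1), and 32 between MC38 and LLC (19 higher and 13 lower in MC38). Such differences were common in general: 42.7% of all genes were called higher and 42.1% lower in 4T1 against MC38, 45.8% and 41.3% in 4T1 against LLC, and 39% and 38% in MC38 against LLC, which is 84.8%, 87% and 77% in either direction. Here too 4T1 libraries stood apart in Rn7sk and Gm26917, and the part of this in the levels was not tested. Levels in this and the next paragraph are CPM with scaling over all 18 libraries. Summed over the 37 genes they came to 5545 ± 67.7 CPM with sildenafil and 3984 ± 31.3 CPM in controls of 4T1, 5118 ± 140.0 and 4251 ± 48.6 CPM in MC38, and 3550.0 ± 50.3 and 2891 ± 86.3 CPM in LLC (SD, n = 3). The order of these sums rests on Ctsl. The other 36 genes summed to 4446 ± 75.0 CPM with sildenafil and 2795 ± 13.5 CPM in controls of 4T1, 3649 ± 85.7 and 2795 ± 20.2 CPM in MC38, and 3115 ± 49.3 and 2498 ± 56.2 CPM in LLC. Sildenafil-treated LLC cells were thus below the controls of both other lines with Ctsl counted and above them without it.

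Of the 37 genes, 4 were present in 1 or 2 of the lines and missing in another. Ctsc averaged 28.1 CPM in 4T1 controls and had 0 counts in all 12 MC38 and LLC libraries, so that 4T1 controls were at least 831-fold higher than MC38 controls and at least 825-fold higher than LLC controls, taking 3 counts over the 3 control libraries as the limit. Ctsh averaged 89.6 CPM in 4T1, 16.5 CPM in MC38 and had 0 counts in the 6 LLC libraries, at least 2630-fold lower in LLC controls than in 4T1 controls and at least 483-fold lower than in MC38 controls. Arsb averaged 53.8 CPM in 4T1 and 30.1 CPM in MC38 controls, with 0 counts in the 6 LLC libraries (at least 1580-fold and 882-fold lower in LLC). Gm2a averaged 36.8 CPM in 4T1 and 47.8 CPM in MC38 controls, with 1 count over the 3 LLC controls and 1 over the 3 LLC sildenafil libraries. The ratios to that 1 count were 3240 (95% exact interval 581 to 128000, counting error only) for 4T1 and 4200 (754 to 166000) for MC38. Sildenafil did not bring any of these genes to 1 CPM in a line that lacked it.

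Other genes differed by several fold in level. Glb1 averaged 65.5 ± 2.40 CPM in 4T1 controls, 7.48 ± 0.329 CPM in MC38 controls and 97.0 ± 0.350 CPM in LLC controls (SD, n = 3), 3.13 ± 0.0608 higher on the log2 scale in 4T1 than in MC38 and 3.70 ± 0.0610 lower in MC38 than in LLC. Hexa ran the other way in 4T1, at 17.5 ± 0.480 CPM, against 64.0 ± 1.73 CPM in MC38 and 80.6 ± 4.26 CPM in LLC controls. Sgsh averaged 30.1 ± 0.756 CPM in 4T1 and 46.0 ± 0.954 CPM in MC38 but 6.60 ± 0.739 CPM in LLC controls, the line in which it rose most. Gla, which was not called in LLC, had its highest control level there, at 34.4 ± 1.47 CPM, against 10.2 ± 0.505 CPM in 4T1 and 16.0 ± 0.739 CPM in MC38. With sildenafil it averaged 27.6 ± 0.387 CPM in 4T1 and 22.9 ± 0.846 CPM in MC38, still below the DMSO controls of LLC. Ctsl averaged 1189 CPM in 4T1 and 1456 CPM in MC38 controls against 392 CPM in LLC controls. The differences in Psap and Gusb between 4T1 and MC38 controls were not called, and each changed sign when library totals alone were used (Psap 0.08, adjusted p = 0.0369; Gusb 0.11, adjusted p = 0.0146).

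**Figure D4:**
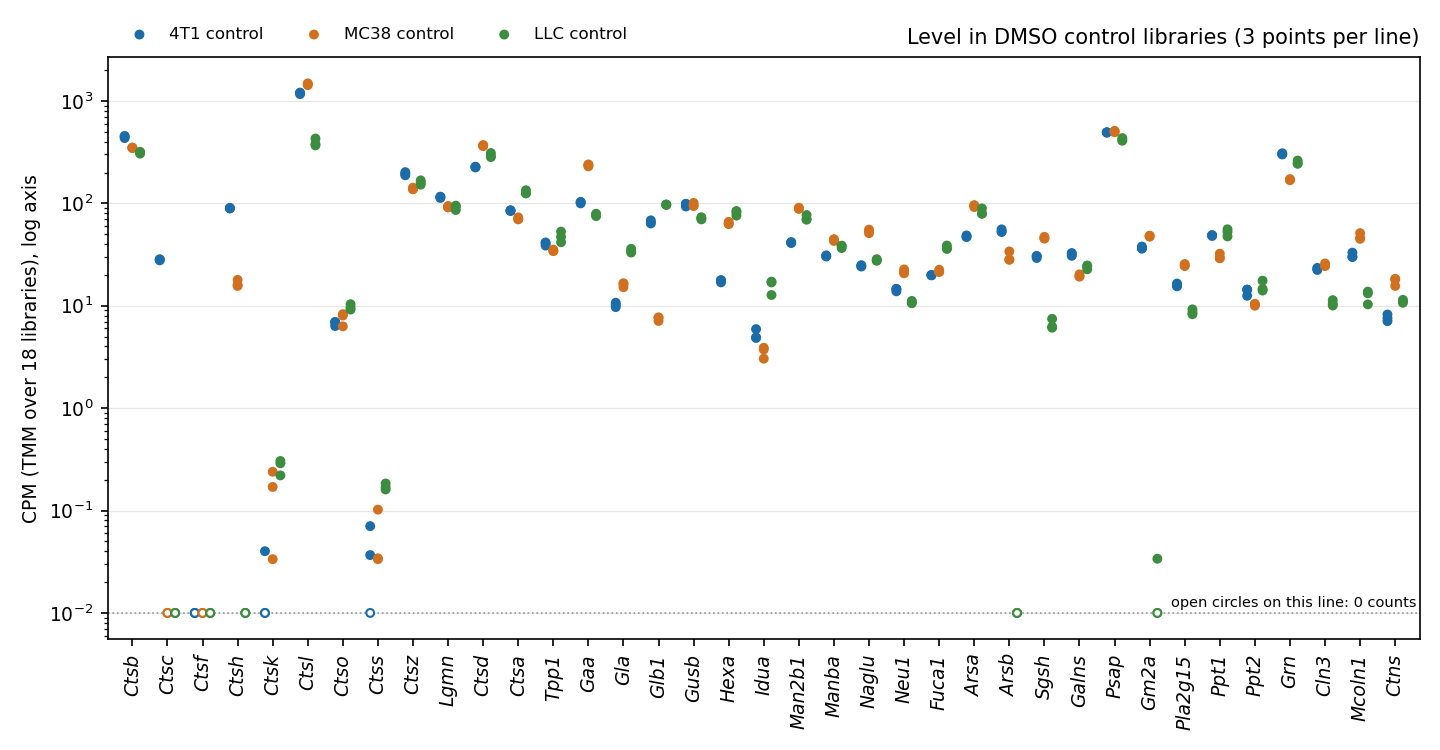
Level of each of the 37 genes (x axis) in the 9 DMSO control libraries (y axis, CPM with scaling over 18 libraries, log axis), with 4T1, MC38 and LLC in order for each gene; open circles on the dotted line are libraries with 0 counts. Ctsc is at 0 in MC38 and LLC, Ctsh and Arsb are at 0 in LLC, Ctsf is at 0 in all lines, and Glb1 is lowest in MC38 at 7.48 CPM.

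Per length, a few genes made up most of the set. TPM was computed from counts and the length of all annotated exons of a gene, not that of the transcripts expressed. Its order of genes within 1 line is therefore approximate. By TPM the highest control levels in 4T1 were those of Ctsl (596), Psap (584), Ctsz (440), Ctsd (313) and Grn (285). In MC38 they were those of Ctsl (387), Psap (316), Ctsd (268), Ctsz (166) and Ctsb (99.3), and in LLC those of Psap (308), Ctsd (251), Ctsz (223), Grn (145) and Ctsl (121). Ranks moved with CPM in place of TPM. Among them, Ctsz went from 3 to 6 in 4T1 controls and from 4 to 7 in MC38 controls, and Ctsl from 5 to 2 in LLC controls. The SDs of Ctsl and Psap in 4T1 were 8.69 and 3.29 TPM (n = 3). With sildenafil the order in 4T1 was Psap (952), Grn (639), Ctsd (616), Ctsl (565) and Ctsz (483).

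Genes that make, carry or surround these enzymes were read from lists chosen with earlier results of these data known. The counts below stand beside 33.5%, 19.5% and 15.1% of all genes called higher in 4T1, MC38 and LLC, and 33.3%, 18.3% and 12.2% called lower. Of 19 other lysosomal hydrolases and activators, 16 of 19 tested rose in 4T1, 13 of 18 in MC38 and 10 of 18 in LLC, and none fell. Lipa, the lysosomal acid lipase that frees cholesterol from its esters, averaged 38.8 ± 0.856 CPM in sildenafil and 13.8 ± 0.211 CPM in control libraries of 4T1 and rose by 1.49 ± 0.0444. Of 13 other lysosomal membrane proteins, 10 rose in 4T1, 9 in MC38 and 8 in LLC, and none fell, among them Lamp2 by 0.76 ± 0.0284, 0.31 ± 0.0291 and 0.37 ± 0.0423. Of 5 cystatins and other cathepsin inhibitors, 4 of 5 tested rose in 4T1, 2 of 4 in MC38 and 2 of 4 in LLC, with Cstb, a cytosolic inhibitor, called in each (0.78, 0.25 and 0.51). The inhibitors are too few for their counts to be set against the shares of all genes.

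Of 7 genes read for mannose 6-phosphate tagging or for sorting to the lysosome, with or without that tag, 3 were called higher and 1 lower in each line. Of all genes, 33.5%, 19.5% and 15.1% were called higher and 33.3%, 18.3% and 12.2% lower in 4T1, MC38 and LLC. The medians of the 7 genes were 0.06 in 4T1, 0.07 in MC38 and 0.16 in LLC. Gnptg, a subunit of the tagging enzyme, rose in each line (0.35 ± 0.0695, 0.27 ± 0.0846 and 0.37 ± 0.0676), while Gnptab, which encodes its catalytic subunits, fell by 0.11 in MC38 and by 0.30 in LLC. The receptor gene Igf2r rose by 0.41 ± 0.0398 in 4T1 and 0.32 ± 0.0489 in MC38. Scarb2, the receptor that carries beta-glucocerebrosidase, fell by 0.18 in 4T1 and rose by 0.14 in MC38 and 0.27 in LLC. Of the MiT/TFE factor genes, Tfeb (0.46 ± 0.0630) and Mitf (0.52 ± 0.0686) rose in 4T1, and neither was called in MC38 (0.24 and 0.25) or LLC (0.18 and -0.19). Tfe3 was not called in any line (0.06, 0.12 and -0.14), and Tfec was too low to test. Transcript levels of these factors do not report where the proteins are in the cell.

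Several cathepsins are abundant in leukocytes, so 14 leukocyte markers were read beside them. Their summed level, scaled over all 18 libraries, was 47.5 to 48.5 CPM in 4T1 sildenafil libraries and 15.5 to 16.5 CPM in 4T1 controls, 25.9 to 26.8 and 16.4 to 16.8 CPM in MC38, and 9.44 to 11.6 and 7.89 to 8.38 CPM in LLC. In 4T1 the 3 markers tested (Cd68, Cd14 and Mpeg1) were called higher, in MC38 3 of 4 (Cd14, Cd68 and Csf1r) and in LLC 1 of 3 (Lyz2). Cd68, itself a lysosomal membrane protein, made up most of the 4T1 sum, at 37.5 ± 0.567 CPM with sildenafil and 9.74 ± 0.230 CPM in controls. Csf1r averaged 4.74 ± 0.543 CPM in sildenafil and 2.81 ± 0.158 CPM in control libraries of MC38, and Cd14 16.2 ± 0.819 and 10.3 ± 0.220 CPM there and 9.39 ± 0.508 and 5.81 ± 0.341 CPM in those of 4T1. Lyz2 averaged 3.34 ± 0.368 CPM in sildenafil and 1.47 ± 0.0492 CPM in control libraries of LLC. Mpeg1 was at 0.947 CPM or less on average in every group. The other 9 markers (Ptprc, Adgre1, Itgam, C1qa, C1qb, Tyrobp, Laptm5, Aif1 and Fcgr1) averaged 0 to 0.102 CPM in every group, with C1qa and Tyrobp at 0 in all of them. Ctss, the leukocyte cathepsin of the set, was at 0.171 CPM or less on average in every group. The part of the markers that moved in the results was not tested.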

How the data were processed

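RNA was measured in 18 libraries (6 groups of 3) made, per the labels' protocols, with a stranded poly(A) kit and read from both ends. The values the authors deposited are expected counts of each gene. RSEM 1.3.1 and STAR 2.7.0f on build mm10, after cutadapt 1.18 and bcl2fastq 2.17, are named in the submitters' processing notes. The sources used here give neither the annotation release nor the strand setting; of the 37 genes, 15 share exon bases with another gene, 9 of them at least 10%. All 55450 identifiers and symbols matched GENCODE M21, the source of gene positions (GRCm38), gene types and exon lengths. Promoter sequences, their positions and the starts used with them come from RefSeq (GRCm38.p6).

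Expected counts were rounded to whole numbers and fitted over all genes by the robust quasi-likelihood F test of edgeR 4.0.16 (R 4.3.3), with TMM factors and genes chosen by filterByExpr. Each line was fitted on its 6 libraries; differences between lines and between controls were fitted on all 18, with 1 coefficient per group. P-values were adjusted by Benjamini-Hochberg over all genes tested (threshold 0.05), and every adjusted p in the text is from this test unless another is named. Positive log2 fold changes mean higher with sildenafil; an SE is the size of the log2 change over the square root of F. CPM uses TMM within the line unless stated. A count of 0 was bounded by 3 counts over the group; bounds and intervals cover counting error only. The script was tested on simulated data.

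The genes and the lists beside them were chosen with earlier results of these data known. Values per library are given for the 6 genes with the largest called change per line (mean of at least 5 CPM, no overlap), any that fell, and the 4 with the largest difference per pair of lines. Same-numbered libraries of a line did not deviate together in every pair (correlations -0.072 to 0.238, over 0.1 in 3 of 9 pairs), so replicate numbers were not taken as pairs. Alternatives were DESeq2 1.42.0, RLE factors, library totals alone, no filter, a stricter filter (5 CPM in 3 libraries), a replicate block, all 18 libraries in 1 fit or only the lines compared, each library left out, a fit to protein-coding genes, and Gm26917 level entered as covariate. Plots were drawn with matplotlib 3.10.9.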

Additional observations from a re-analysis of the deposited data

Results flagged for a closer look

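Responses that differed between lines by the test of the difference itself were flagged. MC38 and 4T1, both treated for 24 hours but grown in different media, differed in 21 of the 34 genes tested, most in Gla (-0.91), Ctns (-0.86), Ctso (-0.71) and Neu1 (-0.64; log2, MC38 minus 4T1). LLC, treated for 48 hours, and 4T1 differed in 26 genes, most in Ctns (-1.31), Gla (-1.27), Neu1 (-1.19) and Arsa (-1.04; LLC minus 4T1). LLC and MC38 differed in 19 genes, most in Idua (-0.93), Neu1 (-0.55), Ctsa (-0.52) and Sgsh (0.49; LLC minus MC38). For LLC the line and the time of treatment cannot be told apart.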

How the results depend on the processing

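Apart from the Gm26917 covariate, the calls kept under every alternative were 28 of 29 in 4T1, 22 of 26 in MC38 and 10 of 12 in LLC, and 20 of 21, 23 of 26 and 13 of 19 for the differences MC38 minus 4T1, LLC minus 4T1 and LLC minus MC38. With the covariate, 9 of the genes were higher and 0 lower in 4T1 (all genes: 622 higher, 567 lower), 11 higher in MC38 (all genes: 514 and 513) and 12 called in LLC (all genes: 1321 and 958). The covariate shares most of its variance with treatment in 4T1 and MC38, which widens the errors. Gaa then stood at -0.0753 (adjusted p = 0.842) and Cln3 at -0.0695 (0.904) in 4T1, and Ctso at -0.066 (0.906) in MC38. With library totals alone, Gusb (0.11) and Psap (0.0765) changed sign between 4T1 and MC38 controls, where that scaling moves the median of all genes to 0.10. In MC38, 1 gene (Arsb) was lower with no filter and with the replicate block, which moved no other count of calls by over 1.5 times; the numbers did not pair the libraries. With all 18 libraries in 1 fit 3097 genes were higher in LLC. For MC38 minus 4T1, 0 of the genes were higher with library totals alone and 2 with only these lines. For LLC minus MC38, 2 were higher with library totals alone and with the stricter filter, and 3 with no filter, with protein-coding genes alone and with only these lines. Leaving out 1 library gave 1127 to 3079 genes higher and 714 to 2915 lower in LLC, the fewest without sildenafil replicate 3 and the most without control replicate 3, and 0 to 1 of the 37 genes lower there. It gave 0 to 1 of them higher for MC38 minus 4T1 and 2 to 6 for LLC minus MC38. The causes were not tested. Genes at under 10 CPM, such as Ctso, Idua and Glb1 in MC38, rest on the fewest counts.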

Other observations

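The genes that were missing in some lines were read beside their nearest protein-coding neighbours with a mean of at least 100 counts in 4T1 controls. Genes with fewer counts there were passed over. This choice admits neighbours present in 4T1 alone and leaves out those present only in another line, so low levels in MC38 or LLC are partly built in. Anxa6, which lies before Gm2a on chromosome 11 and encodes an annexin, averaged 102 CPM in 4T1 controls, 0.0114 CPM in MC38 controls and 0 CPM in LLC controls, while Gm2a was absent in LLC only. On the other side of Gm2a, the transporter gene Slc36a1 was present in each line, at 21.8, 19.7 and 9.50 CPM. The neighbours read for Ctsc (chr7:88278085-88310888) do not adjoin it. Nox4, an NADPH oxidase gene (chr7:87246096-87398710), averaged 2.08 CPM in 4T1 and 0.0795 CPM in MC38 controls and was at 0 in LLC controls. Tmem135 (chr7:89139714-89404222) was present at 30.3, 26.2 and 15.3 CPM. Beside Arsb on chromosome 13, Jmy (59.7, 34.9 and 67.5 CPM) and Lhfpl2 (60.2, 30.6 and 21.4 CPM) were present in all 3 lines, as were Tmed3 (30.3, 58.6 and 33.1 CPM) and Morf4l1 (284, 146 and 184 CPM) beside Ctsh on chromosome 9, each in the order 4T1, MC38 and LLC controls. These values are CPM scaled over 18 libraries, and whether the DNA of these genes is changed in any line was not tested.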
